A study of Mus musculus with 6 samples.

Results

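Hoxb2, Hoxb3, Hoxb4, Hoxb5, Hoxb6, Hoxb7 and Hoxb8 were examined in haematopoietic stem and progenitor cells with and without Asxl2. These 7 genes of the HoxB cluster were chosen by symbol, out of 24063 gene symbols in the count files, and all 7 were among the 14145 genes with enough counts to be tested. RNA was sequenced from bone marrow LSK cells, the fraction that lacks lineage markers and carries Sca-1 and c-Kit, of C57BL/6 mice. In the Asxl2-/- group (3 libraries) both copies of Asxl2 carried loxP sites around exon 11 and were deleted by Mx1-cre, a Cre recombinase under an interferon-inducible promoter. The control group (3 libraries) was wild type for Asxl2 and also carried Mx1-cre. Both groups had received pIpC, a double-stranded RNA that induces interferon, so the controls share the Cre and the interferon stimulus. Per the methods of the study, cells were sorted 4 weeks after pIpC and each group had 3 biological replicates. The labels name no animals and give no ages, so p-values measure only the spread between these samples.

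Hox genes encode homeodomain transcription factors and lie in 4 clusters, in which the order of the genes along the chromosome follows the order of their expression along the body axis. Trithorax group proteins keep Hox genes active and Polycomb group proteins keep them silent, and Asx, the fly relative of Asxl2, is needed for both. In blood, Hox genes are expressed mainly in stem and early progenitor cells and are switched off as cells differentiate.

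The deposited values were read counts of 2 kinds. Asxl2-/- replicates 1 and 3 and control replicate 2 came as 1 count per transcript, here called gene-count files. Asxl2-/- replicate 2 and control replicates 1 and 3 came as 1 count per exon, here called exon-count files, and a read across a splice junction can enter their sums more than once. Total counts were 25528540 to 29136012 in the gene-count files and 53147729 to 55032075 in the exon-count files. File kind was a covariate in every test unless stated otherwise. Asxl2 exon 11 (mm10 chr12:3496225-3496936), which can be read in the exon-count files alone, held 28 of 4804 Asxl2 counts in Asxl2-/- replicate 2 (0.583%, Wilson 95% interval 0.404 to 0.841). It held 10.3% (9.45 to 11.2) and 12% (11 to 13) in control replicates 1 and 3. Over the whole gene Asxl2 differed by a log2 fold change of 0.11 (SE 0.0954, adjusted p = 0.469, edgeR), so the 2 gene-count libraries labelled Asxl2-/- have no such check. Xist counts were 49540 to 66689 in the Asxl2-/- libraries and 590 to 3194 in the controls, and each of 4 Y-linked genes had 0 to 2 against 1026 to 4807 counts. Genotype and sex therefore cannot be told apart in any comparison below.

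All 7 HoxB genes had higher levels in Asxl2-/- than in control LSK cells, by log2 fold changes of 0.82 to 2.59 (50.1% of all tested genes were above 0), and 1 of them passed the threshold of an adjusted p of 0.05 (edgeR quasi-likelihood test). That gene was Hoxb2, 0 were lowered (also 0 at an unadjusted p under 0.05), and 6 did not pass. Among all genes tested, 2.04% were raised at this threshold and 0.304% lowered. DESeq2 raised 6 of the 7, all but Hoxb7, and 8.30% of all genes, while limma-voom raised 2, Hoxb2 and Hoxb6, and 2.64% of all genes. With 1 library left out, edgeR called 0 of the 7 without Asxl2-/- replicate 1, Asxl2-/- replicate 3, control replicate 2 or control replicate 3. Over all genes tested, those fits raised 10 of 14618, 63 of 14748, 101 of 14871 and 3 of 14140, in the same order. Without Asxl2-/- replicate 2, edgeR called 2 of the 7 and raised 385 of 14103 genes. Without control replicate 1 it called 3 of the 7 and raised 764 of 14060 genes. At an unadjusted p under 0.05, 7 of 7 were higher in Asxl2-/- cells, where 15.0% of all tested genes were, and 12.6% were lower. All 4 pairs of libraries of the same file kind had the higher level in the Asxl2-/- library for 7 of 7 genes, against 25.4% of all genes. After the effect of file kind was removed, the groups did not overlap for 7 of 7 genes, against 23.6%. A log2 fold change of at least 1 was reached by 6 of 7 genes, against 7.19%, and the median was 1.81, against 0.000523 over all genes. In bulk RNA, a larger share of cells that express a gene and more RNA of it per cell cannot be told apart.

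**Figure D1:**
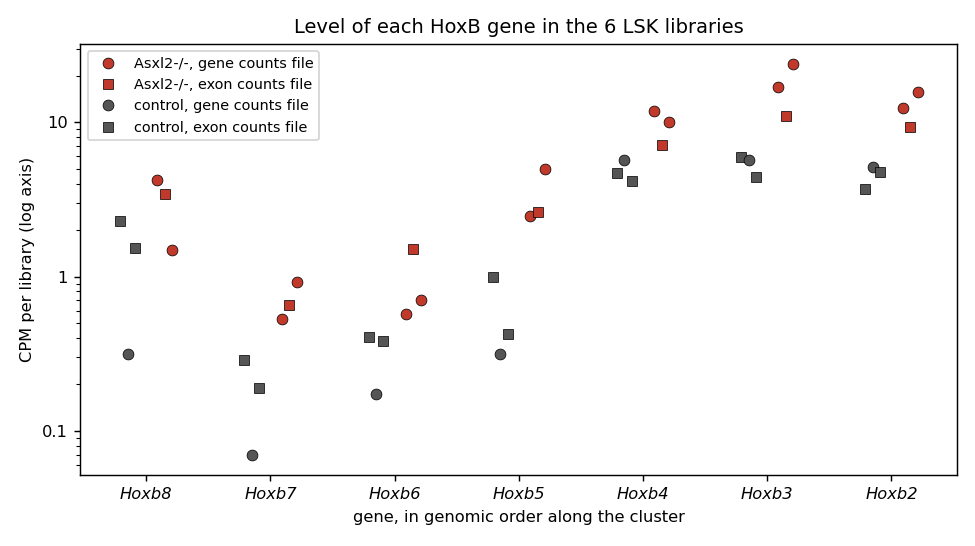
Level of each gene in each library, as CPM (log axis), with the genes in genomic order. Red marks Asxl2-/- and grey control libraries, circles gene-count and squares exon-count files; for Hoxb8 the lowest Asxl2-/- library, at 1.48 CPM, lies below 2 of the 3 controls.

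The 7 genes span 72.1 kb of mouse chromosome 11 (mm10) and are all read from the plus strand, from Hoxb8 at the lower coordinates to Hoxb2 at the higher. Hoxb2, the gene nearest the 3′ end of the cluster among these, patterns the hindbrain in the embryo, and its transcript covers chr11:96351632-96354014 (NM_134032, 1629 exon bases). Its level, in counts per 1000000 counts of the scaled library (CPM), was 12.3, 9.34 and 15.6 CPM in Asxl2-/- replicates 1, 2 and 3, and 3.70, 5.11 and 4.77 CPM in control replicates 1, 2 and 3. Every Asxl2-/- library lay above every control library. Mean log2 CPM, with the effect of file kind removed, was 3.54 ± 0.19 (SD, n = 3) in Asxl2-/- and 2.25 ± 0.20 (n = 3) in control cells. Hoxb2 rose by a log2 fold change of 1.29 (SE 0.199, adjusted p = 0.0380, edgeR), which is 2.45-fold. Within a file kind the log2 fold change was 1.43 (gene-count) and 1.12 (exon-count), so both kinds gave a similar size. The call depended on the libraries included: leaving out Asxl2-/- replicate 1, Asxl2-/- replicate 3, control replicate 2 or control replicate 3 gave an adjusted p of 0.119, 0.0772, 0.130 and 0.127, with log2 fold changes of 1.34, 1.17, 1.15 and 1.40.

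Hoxb3, whose forced expression disturbs lymphoid development, covers chr11:96323126-96347930 (NM_001079869, 3390 exon bases). It had 16.8, 11 and 24 CPM in Asxl2-/- replicates 1 to 3 and 5.95, 5.66 and 4.43 CPM in control replicates 1 to 3. The groups did not overlap, and the 2 gene-count Asxl2-/- libraries were the highest. The log2 fold change was 1.46 (SE 0.268, adjusted p = 0.0528, edgeR), with means of 3.96 ± 0.33 and 2.50 ± 0.30 log2 CPM (SD, n = 3 each). The test was passed when Asxl2-/- replicate 2 (adjusted p = 0.0354) or control replicate 1 (adjusted p = 0.0398) was left out. The gene-count files alone gave 1.83 and the exon-count files 1.07.

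Hoxb4, known for expanding stem cells when overexpressed, covers chr11:96318267-96321638 (NM_010459, 2566 exon bases). It had 11.8, 7.12 and 10.1 CPM in Asxl2-/- replicates 1 to 3 and 4.66, 5.66 and 4.15 CPM in control replicates 1 to 3. The groups did not overlap, yet the difference was the smallest of the 7. The log2 fold change was 0.82 (SE 0.171, adjusted p = 0.0660, edgeR), and the spread within a group was also the smallest among the Asxl2-/- means, at 3.17 ± 0.13 against 2.36 ± 0.11 log2 CPM in control cells (SD, n = 3 each).

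The promoter of Hoxb4 is shown because NF-Y and USF proteins are known to act on it in blood stem cells. It was read from the RefSeq table for GRCm38.p6 (the assembly of mm10), plus strand, chr11:96318017-96318266, the 250 bases before the transcript start:
Hoxb4 promoter: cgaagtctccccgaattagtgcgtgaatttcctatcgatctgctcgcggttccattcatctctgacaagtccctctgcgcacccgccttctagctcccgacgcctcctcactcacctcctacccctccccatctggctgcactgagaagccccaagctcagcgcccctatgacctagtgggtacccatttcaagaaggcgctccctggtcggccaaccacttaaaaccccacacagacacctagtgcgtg
None of 4 motifs searched on both strands, CCAAT (NF-Y), CACGTG (USF), TGTGGT (RUNX) and TGACAG (MEIS), was found in these 250 bases, so no letters are in capitals. Of all 32851 promoters of this length, 33.8%, 6.02%, 14.0% and 15.9% hold them. The sequence is 58.0% G or C with 14 CpG, where the medians over all promoters are 52.4% and 6.

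Hoxb5, used as a marker of long-term stem cells in mouse marrow, covers chr11:96303512-96306121 (NM_008268, 1896 exon bases). It had 2.45, 2.61 and 5.01 CPM in Asxl2-/- replicates 1 to 3 and 0.998, 0.313 and 0.422 CPM in control replicates 1 to 3. The groups did not overlap, and the counts behind the control values were 52, 9 and 20. The log2 fold change was 2.59 (SE 0.617, adjusted p = 0.0779, edgeR), the highest of the 7 genes, with means of 1.74 ± 0.64 and -0.87 ± 0.70 log2 CPM (SD, n = 3 each). Within the gene-count files it was 3.21 and within the exon-count files 1.74, and it ran from 1.87 without control replicate 2 to 3.56 without Asxl2-/- replicate 2. Leaving out control replicate 1 took it past the threshold, at an adjusted p of 0.0423 and a log2 fold change of 3.09.

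Hoxb6, whose forced expression expands immature myeloid cells, covers chr11:96299171-96301569 (NM_008269, 1322 exon bases). Its counts were 16, 80 and 20 in Asxl2-/- replicates 1 to 3 and 21, 5 and 18 in control replicates 1 to 3, which is 0.568, 1.5 and 0.705 CPM against 0.403, 0.174 and 0.380 CPM. The groups did not overlap as CPM. The log2 fold change was 1.90 (SE 0.359, adjusted p = 0.0551, edgeR), and it was the only one of the 7 that was not larger in the gene-count files (1.43) than in the exon-count files (1.71). Both values within a file kind include a pseudocount of 0.1 CPM, which lowers them at levels such as 0.174 CPM, so their difference in size should not be read closely.

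Hoxb7, at chr11:96286646-96290163 (NM_010460, 1269 exon bases), had the fewest counts: 15, 35 and 26 in Asxl2-/- replicates 1 to 3 and 15, 2 and 9 in control replicates 1 to 3. As CPM this was 0.532, 0.658 and 0.917 against 0.288, 0.0695 and 0.190, again without overlap. The log2 fold change was 2.10 (SE 0.604, adjusted p = 0.103, edgeR). Its size rests on few reads, since control replicate 2 had 2 counts, and without that library it was 1.45 (adjusted p = 0.330), while without Asxl2-/- replicate 2 it was 3.32 (adjusted p = 0.0931).

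Hoxb8, a factor that holds myeloid progenitors in an immature state when overexpressed, covers chr11:96281905-96285325 (NM_010461, 2645 exon bases). It had 4.22, 3.44 and 1.48 CPM in Asxl2-/- replicates 1 to 3 and 2.30, 0.313 and 1.52 CPM in control replicates 1 to 3. The groups overlapped on this scale, because Asxl2-/- replicate 3 lay below 2 controls of the other file kind. It lay above control replicate 2, the control of its own kind, and with file kind removed the groups were separate. The log2 fold change was 1.81 (SE 0.715, adjusted p = 0.170, edgeR), with means of 1.74 ± 0.93 and -0.097 ± 0.64 log2 CPM (SD, n = 3 each), the widest Asxl2-/- spread of the 7 genes. It ran from 0.85 (adjusted p = 0.520) without control replicate 2 to 3.17 (adjusted p = 0.0788) without Asxl2-/- replicate 2, and was 1.34 (adjusted p = 0.256) without Asxl2-/- replicate 1.

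The sequences around Hoxb8 are shown because its mRNA is a known target of miR-196a, whose gene lies in the same cluster, and because its promoter holds the single motif match found. In the promoter (RefSeq, GRCm38.p6, plus strand, chr11:96281655-96281904, the 250 bases before the start) the capitals mark a CCAAT on the plus strand 57 bases before the start:
Hoxb8 promoter: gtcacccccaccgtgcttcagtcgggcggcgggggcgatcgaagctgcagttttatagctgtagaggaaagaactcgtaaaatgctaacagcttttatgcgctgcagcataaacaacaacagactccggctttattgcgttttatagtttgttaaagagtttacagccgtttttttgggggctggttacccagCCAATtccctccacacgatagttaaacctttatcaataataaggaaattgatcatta
CCAAT occurs on either strand in 33.8% of promoters of this length, and the other 3 motifs were not found here. The sequence is 44.4% G or C with 12 CpG. In the mature miRNAs of the cluster, from RefSeq, the capitals mark the seed, bases 2 to 8. In the best gapless match to miR-196a-5p in the Hoxb8 3′ UTR, the capitals mark the bases opposite the seed:
mmu-miR-196a-5p: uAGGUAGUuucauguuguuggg
Hoxb8 3′ UTR site: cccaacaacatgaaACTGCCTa
mmu-miR-10a-5p: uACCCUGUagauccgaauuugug
Of the 22 bases of the site, 21 form Watson-Crick pairs and 1 a G:U pair, which lies opposite the seed. The row for Mir196a-1, the precursor at chr11:96265164-96265265, held 0, 12 and 7 counts in Asxl2-/- replicates 1 to 3 and 0, 0 and 4 in control replicates 1 to 3. Mir10a, between Hoxb5 and Hoxb4 at chr11:96317165-96317274, held 11, 6 and 7 against 1, 4 and 4. Both were below the filter, and poly(A)-selected libraries do not measure mature miRNAs, so no difference was tested.

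**Figure D2:**
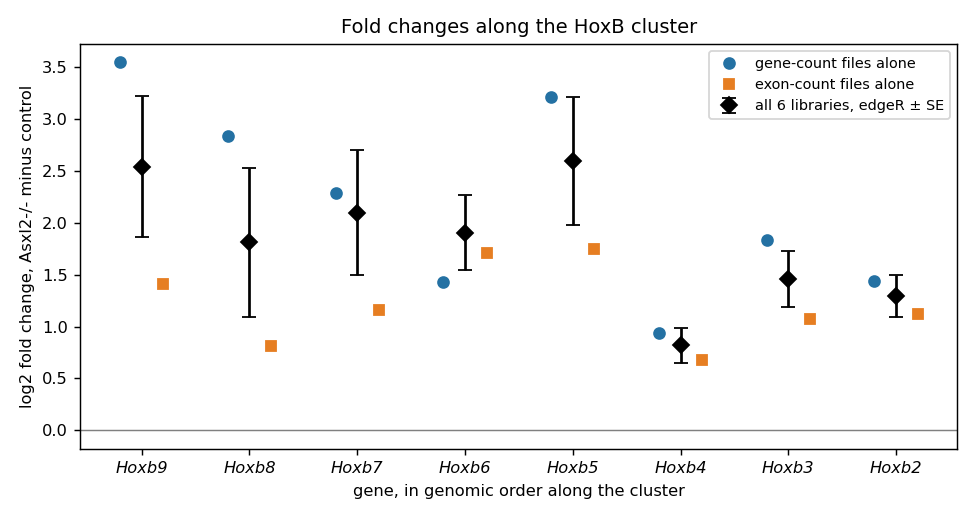
Log2 fold change (Asxl2-/- minus control) of Hoxb9 and the 7 genes in genomic order. Black diamonds with bars are the edgeR estimate from 6 libraries ± SE, blue circles the gene-count files alone and orange squares the exon-count files alone; all values lie above 0, from 0.68 for Hoxb4 to 3.54 for Hoxb9.

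Among the other genes of the cluster, Hoxb9 had 54, 136 and 52 counts in Asxl2-/- replicates 1 to 3 and 53, 2 and 37 in control replicates 1 to 3. Its log2 fold change was 2.54 (SE 0.678, adjusted p = 0.0926, edgeR). Hoxb1 had 0 counts in all 3 Asxl2-/- libraries and 2, 0 and 0 in the controls, and Hoxb13 had 0, 2 and 0 against 1, 0 and 0, so the genes at both ends were below the filter and were not tested. The noncoding Gm53, beyond Hoxb9, had 0, 62 and 37 counts in Asxl2-/- replicates 1 to 3 and 5, 0 and 18 in control replicates 1 to 3. The groups overlapped and the log2 fold change was 3.02 (SE 1.51, adjusted p = 0.244, edgeR). The neighbours outside the cluster did not share the direction of the HoxB genes throughout. Atp5g1, a subunit of ATP synthase beyond Hoxb13, had a log2 fold change of -0.61 (SE 0.129, adjusted p = 0.0674, edgeR). Beyond Hoxb1, Skap1, an adaptor of T cell signalling, had 0.82 (SE 0.358, adjusted p = 0.200), and Snx11, a sorting nexin, -0.31 (SE 0.111, adjusted p = 0.148). Calcoco2, Ttll6 and Gm11529 were listed at 0 in all 6 libraries.

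No exon of the 7 genes shares bases with an exon of another gene in the count files. In RefSeq, the range of the antisense lncRNA Hoxb3os covers 61.9% of the exon bases of Hoxb2 and 88.0% of those of Hoxb3, and that of Hoxb5os covers all of Hoxb5 and Hoxb6. The libraries were unstranded, so reads from these partners cannot be told apart. No antisense range covers Hoxb7 or Hoxb8, and Hoxb4 lies within the RefSeq range of Hoxb3 itself.

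Levels between genes were compared per length, as CPM per kb of exon. Hoxb2 was highest in both groups, at a geometric mean of 7.46 CPM per kb in Asxl2-/- and 2.75 in control cells. In Asxl2-/- cells Hoxb3 (4.85), Hoxb4 (3.69), Hoxb5 (1.67), Hoxb8 (1.05), Hoxb6 (0.639) and Hoxb7 (0.539 CPM per kb) followed. In control cells the order was Hoxb4 (1.87), Hoxb3 (1.56), Hoxb8 (0.389), Hoxb5 (0.268), Hoxb6 (0.226) and Hoxb7 (0.123 CPM per kb). Of the 6 neighbouring pairs in each order, 4 kept their order in all 3 libraries of the group. The exceptions were Hoxb5 against Hoxb8 and Hoxb6 against Hoxb7 in Asxl2-/- cells, and Hoxb8 against Hoxb5 and Hoxb5 against Hoxb6 in control cells. Hoxb3 was above Hoxb4 in each Asxl2-/- library and below it in each control library. Among all tested genes ranked by level per length, Hoxb2 stood at percentile 30.0 in control and 44.1 in Asxl2-/- cells, and Hoxb7 at percentile 5.19 and 12.2.

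**Figure D3:**
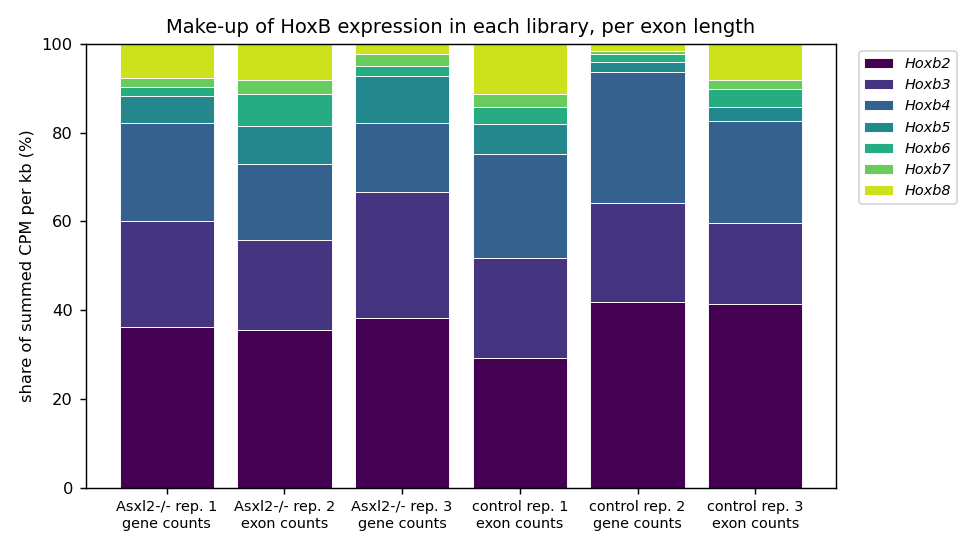
Share of each gene in the summed CPM per kb of the 7 genes (per cent), 1 bar per library. Hoxb2, Hoxb3 and Hoxb4 make up 73.1% to 93.7% of every bar, and Hoxb8 (yellow) is thin in Asxl2-/- replicate 3 and control replicate 2.

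Summed over the 7 genes, the level was 48.7, 35.7 and 57.8 CPM in Asxl2-/- replicates 1 to 3 and 18.3, 17.3 and 15.9 CPM in control replicates 1 to 3. The sum was thus close among controls, and lowest among the Asxl2-/- libraries in the exon-count file. Hoxb2 to Hoxb4 contributed 40.9, 27.5 and 49.7 CPM against 14.3, 16.4 and 13.4 CPM. Hoxb5 to Hoxb8 contributed 7.77, 8.21 and 8.11 CPM against 3.99, 0.868 and 2.51 CPM. The effect of file kind was not removed from these sums, and the lowest, control replicate 2, is the only gene-count control. In the exon-count files (Asxl2-/- replicate 2, control replicates 1 and 3) these genes held 23%, 21.8% and 15.8% of the 7-gene counts. In the gene-count files (Asxl2-/- replicates 1 and 3, control replicate 2) they held 16%, 14% and 5.02%. How even each group was therefore cannot be read from these sums. Single genes within them also differed between libraries. Hoxb8 held 8.67% (Wilson 95% interval 7.30 to 10.3), 9.63% (8.39 to 11) and 2.56% (1.90 to 3.44) of the counts of the 7 genes in Asxl2-/- replicates 1 to 3. In control replicates 1 to 3 it held 12.6% (10.6 to 14.8), 1.81% (0.954 to 3.40) and 9.57% (7.67 to 11.9). Hoxb5 held 5.03%, 7.32% and 8.66% against 5.45%, 1.81% and 2.66%. Asxl2-/- replicates 1 and 3, both gene-count files, thus differed in Hoxb8 beyond counting error, with 119 and 42 counts, and had 69 and 142 counts of Hoxb5. Intervals cover counting error only, since reads without molecular identifiers are not independent molecules.

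Exon by exon, which the 3 exon-count files allow, the share of counts in the last exon of Asxl2-/- replicate 2 overlapped both controls within Wilson 95% intervals for 6 of 7 genes. Hoxb3 was the exception. Its last exon held 77.9% (74.3 to 81.0) of 587 counts in Asxl2-/- replicate 2, 86.8% (82.5 to 90.1) of 310 in control replicate 1 and 85.7% (80.3 to 89.8) of 210 in control replicate 3. The interval cleared that of control replicate 1 alone. Exons 1, 2 and 3, held 34, 24 and 72 counts in Asxl2-/- replicate 2, against 9, 5 and 27 in control replicate 1 and 11, 4 and 15 in control replicate 3. With 1 Asxl2-/- exon-count file, this has no replicate check. Hoxb6 and Hoxb7 had 21 and 15 counts in control replicate 1 and 18 and 9 in control replicate 3. Their intervals were wide, so overlap says little for them, and the share of other genes that overlap was not computed.

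The mean of the 7 centred log2 CPM profiles was 0.887, 0.563 and 1.06 in Asxl2-/- replicates 1 to 3 and -0.518, -1.11 and -0.88 in control replicates 1 to 3. Hoxb3 was nearest to the mean of the other 6, with a root-mean-square difference of 0.173 on the log2 scale, and Hoxb5 (0.688) and Hoxb8 (0.650) were farthest. Of 12949 genes outside the cluster compared over the 6 libraries, the 5 most like the mean were H1f0 (0.0968), Nrbp2 (0.106), Gstt1 (0.110), Gprasp2 (0.116) and Rap1gap (0.121, all root-mean-square log2 differences). H1f0, a linker histone, had 168, 111 and 159 CPM in Asxl2-/- replicates 1 to 3 and 52.6, 44.0 and 41.7 CPM in control replicates 1 to 3.

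HoxB genes were set beside their paralogs, the genes of the same position in other clusters. Per length, Hoxb2, Hoxb3 and Hoxb4 were above Hoxa2, Hoxa3 and Hoxa4 in 6 of 6 libraries, while Hoxb5, Hoxb6 and Hoxb7 were below Hoxa5, Hoxa6 and Hoxa7 in 6 of 6. Hoxb7, for example, was at 0.419 to 0.722 CPM per kb in Asxl2-/- and 0.0547 to 0.227 in control cells, where Hoxa7 was at 5.70 to 7.09 and 1.94 to 3.44. The summed HoxA level was 76.9 to 146 CPM in Asxl2-/- and 31.8 to 55.1 CPM in control cells. Of 9 HoxA genes tested, 1 rose at the threshold (Hoxa10, log2 fold change 2.14, SE 0.243, adjusted p = 0.0196, edgeR), and none fell. At an unadjusted p under 0.05, 8 were higher, and the median was 1.23. Over all tested genes, 2.04% rose at the threshold and 15.0% were higher at an unadjusted p under 0.05. HoxC had 1 gene with enough counts, Hoxc6 (log2 fold change 3.28, SE 0.624, adjusted p = 0.0557), and HoxD none.

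TALE homeodomain proteins bind DNA together with Hox proteins. Of 7 tested, 3 were higher and 0 lower at an unadjusted p under 0.05 (edgeR), against 15.0% and 12.6% of all tested genes. The median log2 fold change of the 7 was 0.374. Meis1, the partner best known with Hox proteins in leukaemia, had 127, 107 and 117 CPM in Asxl2-/- replicates 1 to 3 and 83.1, 40.5 and 51.6 CPM in control replicates 1 to 3, a log2 fold change of 1.12 (SE 0.278, adjusted p = 0.0818, edgeR). Of 27 tested regulators of Hox clusters (retinoid receptors, NF-Y and USF factors, Trithorax and Polycomb proteins), 3 rose and none fell, and Cdx1, Cdx2 and Cdx4 had too few counts to be tested. Those raised were the retinoid receptors Rarg (1.79, SE 0.188, adjusted p = 0.0178) and Rxra (1.95, SE 0.237, adjusted p = 0.0234), and Pcgf2, a Polycomb protein (1.49, SE 0.246, adjusted p = 0.0440, all log2 fold changes from edgeR). The median over the 27 was 0.0604. At an unadjusted p under 0.05, 6 were higher and 1 lower, against 15.0% and 12.6% of all tested genes. At the threshold, 2.04% of all tested genes rose.

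**Figure D4:**
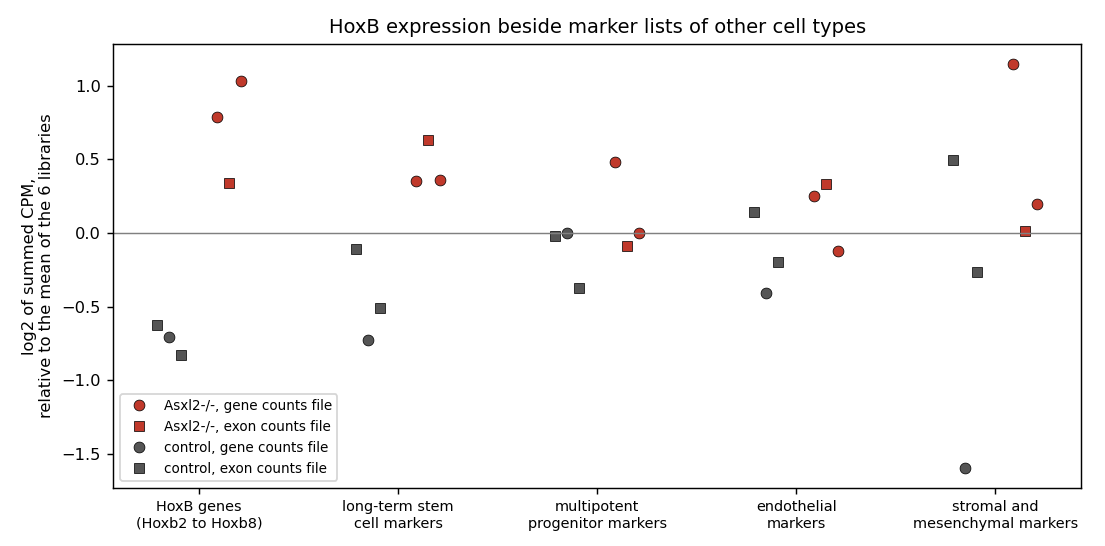
Summed CPM of the HoxB genes and of 4 marker lists in each library, as log2 relative to the mean of the 6 libraries. As plotted, without removal of the effect of file kind, HoxB and long-term stem cell markers separate the groups, and the other lists overlap. Within a file kind, the endothelial sum was also higher in every Asxl2-/- library than in every control.

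As a sum, markers of long-term stem cells, a subset within the sorted gate, were higher in the same 3 libraries as the HoxB genes. The summed level of 15 long-term stem cell markers was 679 to 823 CPM in Asxl2-/- and 320 to 492 CPM in control cells. Of these, 5 rose (2.04% of all tested genes did), among them Slamf1, Ctnnal1, Vwf and Cdkn1c, and none fell. At an unadjusted p under 0.05, 10 were higher, against 15.0% of all tested genes, and the median log2 fold change was 1.17. The part of such a shift in the HoxB result was not tested. For 12 multipotent progenitor markers, sums were 1080 to 1600 and 885 to 1150 CPM, which overlap, with 1 raised (Rag1) and a median of 0.176. The sort markers Kit, Ly6a and Ptprc summed to 716 to 743 and 734 to 820 CPM, with 0 of 3 past the threshold of the edgeR test (0 at an unadjusted p under 0.05). Ly6a, which encodes Sca-1, was uneven among the controls, at 40.5, 260 and 148 CPM, against 52.6, 69.1 and 57.6 CPM in Asxl2-/- replicates 1 to 3.

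Markers of cells outside the gate overlapped as sums between the groups, and none of these lists had a marker at 0 in every library. These sums mix file kinds. In the gene-count files the endothelial sum was 249 and 192 CPM in Asxl2-/- replicates 1 and 3 against 158 CPM in control replicate 2. In the exon-count files it was 263 CPM in Asxl2-/- replicate 2 against 231 and 183 CPM in control replicates 1 and 3. The lineage, stromal and neural sums were not higher in Asxl2-/- cells in every pair of the same file kind. The 11 lineage markers tested had sums of 150 to 196 CPM in Asxl2-/- and 135 to 188 CPM in control cells, with 3 higher and 3 lower at an unadjusted p under 0.05 (edgeR). None of 8 endothelial (192 to 263 and 158 to 231 CPM), 9 stromal (147 to 322 and 48.2 to 205 CPM) or 7 neural markers tested (93.7 to 213 and 160 to 173 CPM) passed the threshold of the edgeR test. At an unadjusted p under 0.05, 3 endothelial markers were higher, 0 stromal ones differed and 1 neural one was lower. Over all tested genes, 15.0% were higher and 12.6% lower at that cut-off. The median log2 fold changes over lineage, endothelial, stromal and neural markers were 1.01, 0.809, 1.26 and 0.110, and their part in the HoxB result was not tested.

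**Figure D5:**
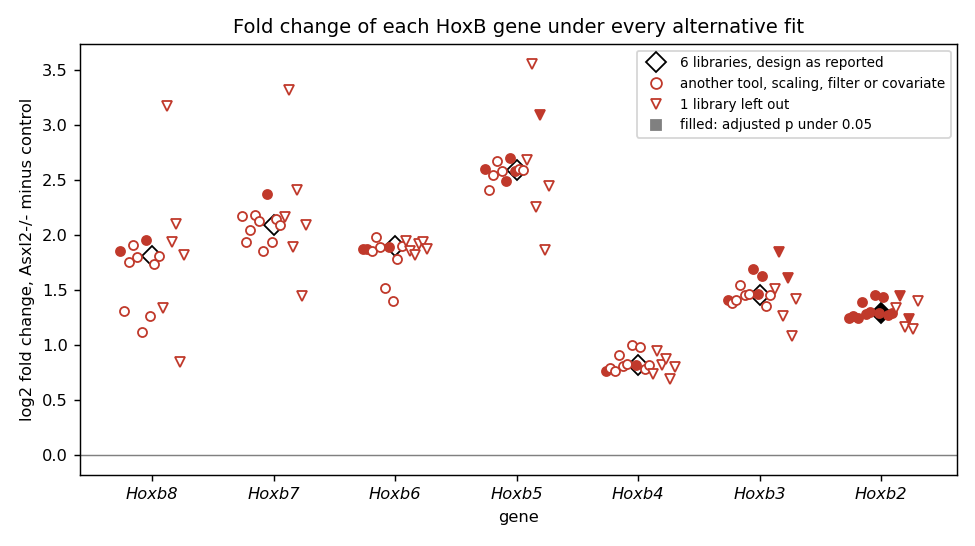
Log2 fold change of each gene under the reported design (black diamond) and 17 alternative fits (red circles, or triangles where 1 library was left out), filled where the adjusted p is under 0.05. All values lie above 0, and Hoxb2 has the most filled marks.

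Across 17 alternative fits, the log2 fold change was above 0 in 115 of 115 fits of single genes and past the threshold in 32. Hoxb2 passed in 13 of 17 and Hoxb3 in 6 of 17. Hoxb5 passed in 5 of 16, Hoxb6 in 3 of 16, Hoxb4 in 2 of 17, Hoxb8 in 2 of 16 and Hoxb7 in 1 of 16. Since fold changes share the 6 libraries, the fits are not independent of each other.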

How the data were processed

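RNA was profiled in LSK cells of 3 Asxl2-/- and 3 control libraries, grouped by their titles. The deposited values were raw read counts per RefSeq transcript or exon on mm10, which the authors had not normalised or pooled. The submitters' processing notes name STAR, featureCounts and DESeq2, with versions not given in the sources used here. Per the methods, unstranded libraries of poly(A)-selected RNA were sequenced. The study's own test was Cuffdiff, which was not used here. Gene-count files had 33068 lines and exon-count files 317548 lines. Each of 24063 symbols was represented by its transcript with the longest summed exon length, and exon counts were summed.

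Group differences were estimated in edgeR 4.0.16 (R 4.3.3; glmQLFit, glmQLFTest) after TMM scaling and filterByExpr, with file kind and group as terms and 3 residual degrees of freedom. Two-sided p-values were adjusted over 14145 genes (Benjamini-Hochberg, threshold 0.05). CPM refer to the TMM-scaled library. SDs after removal of the file kind effect are somewhat too small, since the same 6 libraries gave that effect. Fold changes within 1 file kind used a pseudocount of 0.1 CPM and have no test. The scripts were tested on simulated counts. Alternatives were DESeq2 1.42.0, limma-voom (limma 3.58.1), other scalings, filters, covariates and transcripts, and leaving out each library.

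The genes named were the 7 HoxB genes, the rest of the cluster and its 3 nearest neighbours on each side, list genes past the threshold or with the 3 smallest p, Asxl2, and the 5 nearest profiles (at least 10 counts in every library). A few of these are not reported here. The HoxB genes and the lists were chosen with earlier results of these data known. One listed gene, 2810433D01Rik, lies outside the cluster on the same chromosome and had 0 counts. Promoters of 2 of the 7 genes were in the RefSeq table. The miR-196a site was searched in the GENCODE transcript Hoxb8-001.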

Additional observations from a re-analysis of the deposited data

How the results depend on the processing

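Of the 7 HoxB genes, 1 passed the threshold in the reported fit. It was 6 with DESeq2, 2 with limma-voom, 3 without the file kind covariate, and 0 to 3 when 1 library was left out (0 without Asxl2-/- replicate 1, Asxl2-/- replicate 3, control replicate 2 or control replicate 3, 2 without Asxl2-/- replicate 2, and 3 without control replicate 1). The labels do not say whether replicate numbers pair the libraries. Correlations of deviations from the group means for pairs 1, 2 and 3 were 0.294, -0.00766 and -0.00277. Those of unlike numbers ran from -0.316 to 0.256. Each pair of the same number joins different file kinds, whose effect was not removed here, so these values cannot decide whether the libraries are paired. With the replicate block, 7 HoxB genes passed with file kind, where 1 residual degree of freedom is left and 5179 of 14145 genes passed in all, and 3 without it. The other fits gave 1. Over all genes, 331 passed in the reported fit, 2302 with DESeq2, 161 with library size only, and 9 to 1312 with 1 library left out.

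Of the other Hox genes, 1 passed, against 6 with DESeq2, 2 with limma-voom, 2 without the file kind covariate, 9 with the replicate block and file kind, and 0 to 6 with 1 library left out. Of the TALE cofactors, 1 passed, against 3 with DESeq2, 4 and 3 with the replicate block with and without file kind, and 0 to 3 with 1 library left out. Of the regulators, 3 passed, against 5 with DESeq2, 9 with the replicate block and file kind, and 0 to 3 with 1 library left out. The cause was not tested in any of these. Signs turned for 4 marker genes, none past the threshold in the reported fit: with 1 library left out, Kit (0.23) ran from -0.13 to 0.59, Mbp (0.11) from -0.11 to 0.33 and Snap25 (0.92) from -2.15 to 5.58, each lowest without control replicate 2. Snap25 was past the threshold at 5.58 without Asxl2-/- replicate 2 (adjusted p = 0.0386) and at 1.72 with the replicate block and file kind (adjusted p = 0.00118). Ptprc (0.043) ran from -0.13 to 0.22, with -0.016 without control replicate 3, and was -0.0043 with DESeq2 and -0.0045 with median-ratio scaling (all log2 fold changes). Low counts limit Hoxb5 to Hoxb8, since 3 of the 7 genes had at least 10 counts in every library.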
